A study of Zea mays with 14 samples.

Results

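The genes described here are 98 maize genes whose messenger RNA was lower in zmlrl5 material than in wild type in both of 2 materials, root hairs labelled W22 and roots labelled B73. They were found by levels in CPM (a gene's count divided by its library's total and multiplied by 1000000). A gene was taken where both wild types averaged at least 5 CPM, where the wild type mean was at least 1.5 times the zmlrl5 mean in both pairs with 0.1 CPM added to each mean, and where both zmlrl5 values lay below both wild type values in each pair. Of 39305 gene IDs, 10441 passed the level rule in both wild types, and 98 of these, or 0.939%, met all of it. The drop in the zmlrl5 pairs therefore chose the genes and is given as a description, without a test.

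Messenger RNA was counted in 14 libraries from seedlings aged 3 days, 2 libraries in each of 7 groups. A tissue set of 6 libraries came from wild type plants of the inbred line B73 and held scraped root hairs, the roots left after scraping, and aerial seedlings. The zmlrl5 set of 8 libraries held W22 wild type root hair, W22 zmlrl5 knock down root hair, B73 wild type root whose hairs had been scraped off, and B73 zmlrl5 knock out root. The labels do not say how the gene was disturbed, whether a line is 1 event or several, or whether the titles' silence on scraping for zmlrl5 roots means that hairs were left on. The growth protocol names B73 for all samples, while W22 comes from the samples' cultivar entry. The gene behind the name zmlrl5 has no ID in the labels or tables used, so the knock down and the knock out were not checked on the targeted gene. Whether the 2 libraries of a group came from separate plants is not given either, so p-values measure only the spread between these libraries, which may be technical.

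Root hairs are long outgrowths of single epidermal cells that enlarge the surface through which a root takes up water and ions. The LRL genes belong to the basic helix-loop-helix transcription factors, and in Arabidopsis members of this group are needed for root hair growth. Hairs are rich in transporters, wall proteins, peroxidases and enzymes that handle reactive compounds. In such bulk samples, fewer cells of a type and less RNA per cell cannot be told apart.

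Library totals ran from 12336633 to 27788359 counts, so a floor of 3 counts stood at 0.108 to 0.243 CPM. The 2 libraries of a group correlated at 0.985 to 0.995 on the log2 scale across genes, which are not independent replicates. Of the 98 genes, 94 were counted in all 14 libraries. Only 62 matched an entry of the RefSeq gene table, each to 1 entry, and 10 had a name there, so most are given by their ID and without a role.

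The hair pair alone was met by 857 genes (8.21% of the 10441) and the root pair alone by 380 (3.64%). The 98 shared genes were 11.4% of the first list and 25.8% of the second. Their hair ratios ran from 1.5 to 8.72 with a median of 1.9, and their root ratios from 1.5 to 44 with a median of 1.99. Over all 10441 genes the medians were 0.999 and 1.02. The hair ratio was the larger of the pair in 45 genes and the root ratio in 53. At least 2 in both pairs was reached by 20 genes, and at least 3 in both by GRMZM2G140824 alone.

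**Figure D1:**
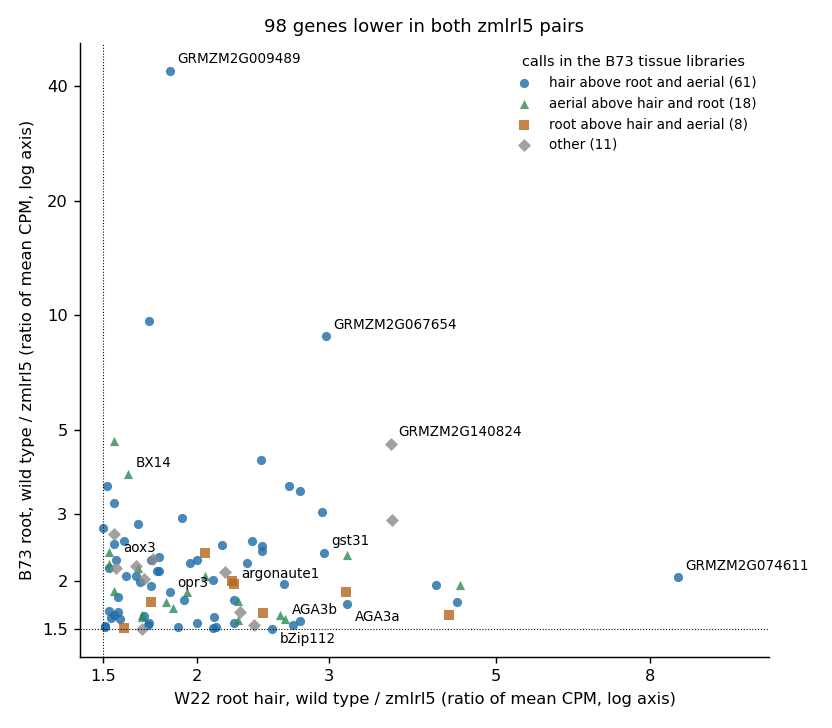
Each point is 1 of the 98 genes. Its wild type to zmlrl5 ratio of mean CPM in W22 root hair is on the x axis. That in B73 root is on the y axis, and both axes are log axes. Colours and shapes give the pattern of edgeR calls with TMM scaling in the B73 tissue libraries. Dotted lines mark the ratio of 1.5 that chose the genes, most points lie near it, and GRMZM2G009489 (root ratio 44) and GRMZM2G074611 (hair ratio 8.72) lie farthest out along the axes.

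Enzymes that act on reactive or foreign compounds made up the first named group. gst31 and gst18 encode glutathione S-transferases, which join glutathione to such compounds. gst31 (GRMZM2G475059) stood at 204 and 207 CPM in W22 wild type hair and at 73.9 and 65.3 in zmlrl5 hair, a ratio of 2.95. In root it stood at 127 and 136 CPM in wild type and at 55.9 and 54.2 in zmlrl5, a ratio of 2.38. The tissue libraries held 254 and 301 CPM in B73 hair, 61.2 and 52.5 in root, and 48.1 and 44.2 in the aerial part. Both zmlrl5 groups therefore lay near the level of the B73 root and aerial libraries, and the wild types lay above it. gst18 (GRMZM2G019090) was close to the threshold, with 50.2 and 53.1 against 32.7 and 35.8 CPM in hair and 118 and 116 against 79.2 and 73.6 in root. Its ratios were 1.51 and 1.53. In the tissue set gst18 was far lower, at 6.77 and 8.1 CPM in hair, 2.17 and 3.33 in root, and 1.4 and 3.15 in the aerial part.

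aox3 (GRMZM2G074743) encodes an alternative oxidase, a mitochondrial enzyme that passes electrons to oxygen outside the cytochrome path. Its levels were 37.8 and 41.5 CPM in W22 wild type hair, 24.9 and 25.9 in zmlrl5 hair, 34.8 and 35.8 in wild type root, and 14.7 and 16.1 in zmlrl5 root. The ratios were 1.56 in hair and 2.28 in root. B73 hair of the tissue set held 479 and 480 CPM, more than any other group, with 74.3 and 65.2 in root and 16.5 and 24.2 in the aerial part. The W22 and B73 wild type hairs thus did not overlap for aox3, and line and library set cannot be told apart there.

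The jasmonate-related and defence genes were opr3 and BX14. opr3 (GRMZM2G156712) belongs to the oxo-phytodienoic acid reductases, some of which act in jasmonate synthesis. It stood at 380 and 366 CPM in W22 wild type hair against 206 and 199 in zmlrl5 hair, and at 22.4 and 24.8 in wild type root against 11.9 and 13.3 in zmlrl5 root. The ratios were nearly equal, at 1.84 and 1.87. B73 hair held 86 and 74 CPM, root 17.8 and 15.9, and the aerial part 2.65 and 2.98, so both hair groups lay above both root groups of either set. BX14 (GRMZM2G127418) encodes a methyltransferase of the benzoxazinoid pathway, which makes defence compounds of maize. In hair it held 136 and 142 CPM in wild type and 90.5 and 81.1 in zmlrl5, and in root 24.3 and 21.3 against 5.35 and 6.42. Its root ratio of 3.83 was well above its hair ratio of 1.62. The highest BX14 levels of the study were in the aerial part, at 460 and 626 CPM, with 82.8 and 78.3 in B73 hair and 51.6 and 58.2 in root.

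Sugar metabolism was represented by AGA3a and AGA3b, alkaline alpha-galactosidases, which remove galactose from raffinose-type sugars. AGA3a (GRMZM2G050177) stood at 13 and 15.4 CPM in W22 wild type hair and 4.97 and 3.85 in zmlrl5 hair, and at 9.08 and 10.4 in wild type root and 5.97 and 5.13 in zmlrl5 root. AGA3b (GRMZM2G037265) stood at 42.2 and 42.5 against 15 and 17.2 CPM in hair, and at 22.6 and 20.6 against 15.2 and 12 in root. Both genes had the larger ratio in hair, 3.17 and 2.62, against 1.74 and 1.59 in root. They parted in the tissue set, where AGA3a was highest in B73 hair, at 33.7 and 36 CPM against 22.7 and 16.8 in the aerial part and 16.2 and 14.2 in root. AGA3b was highest in the aerial part, at 152 and 119 CPM against 42 and 41.3 in hair and 30.5 and 32.1 in root. A second ID, GRMZM2G050273, matches the same RefSeq gene as AGA3a, held under 5 CPM in every library and was no member.

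The sulfur, transcription factor and small RNA genes were aprl2, bZip112 and argonaute1. aprl2 (GRMZM2G087254), named as a relative of the reductases of sulfate assimilation, held 50.8 and 51.4 CPM in W22 wild type hair and 29.5 and 31 in zmlrl5 hair. In root it held 25.1 and 22.1 against 16.2 and 15.2, a ratio of 1.5 after 1.69 in hair. In the tissue set it held 15 and 16.7 CPM in hair, 17.8 and 16 in root, and 31.8 and 26 in the aerial part. bZip112 (GRMZM2G103647, also named bZIP17) encodes a basic leucine zipper transcription factor. It stood at 33 and 37.4 against 14.1 and 13.7 CPM in hair and at 122 and 117 against 78.3 and 80.5 in root, ratios of 2.52 and 1.5. In B73 hair bZip112 reached 136 and 120 CPM, in root 67.9 and 74.5, and in the aerial part 39 and 31.5. argonaute1 (GRMZM2G162525) belongs to the Argonaute proteins, which bind small RNAs. It was a root gene in these libraries, with 557 and 613 CPM in wild type B73 roots against 307 and 285 where zmlrl5 was knocked out. In hair argonaute1 held 5.92 and 5.34 CPM in wild type and 2.38 and 2.53 in zmlrl5, ratios of 2.24 in hair and 1.97 in root. The tissue set gave the same order, with 141 and 149 CPM in root, 39.2 and 32.7 in the aerial part and 2.59 and 2.81 in hair. So argonaute1 met the rule in hair at a small part of its root level.

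**Figure D2:**
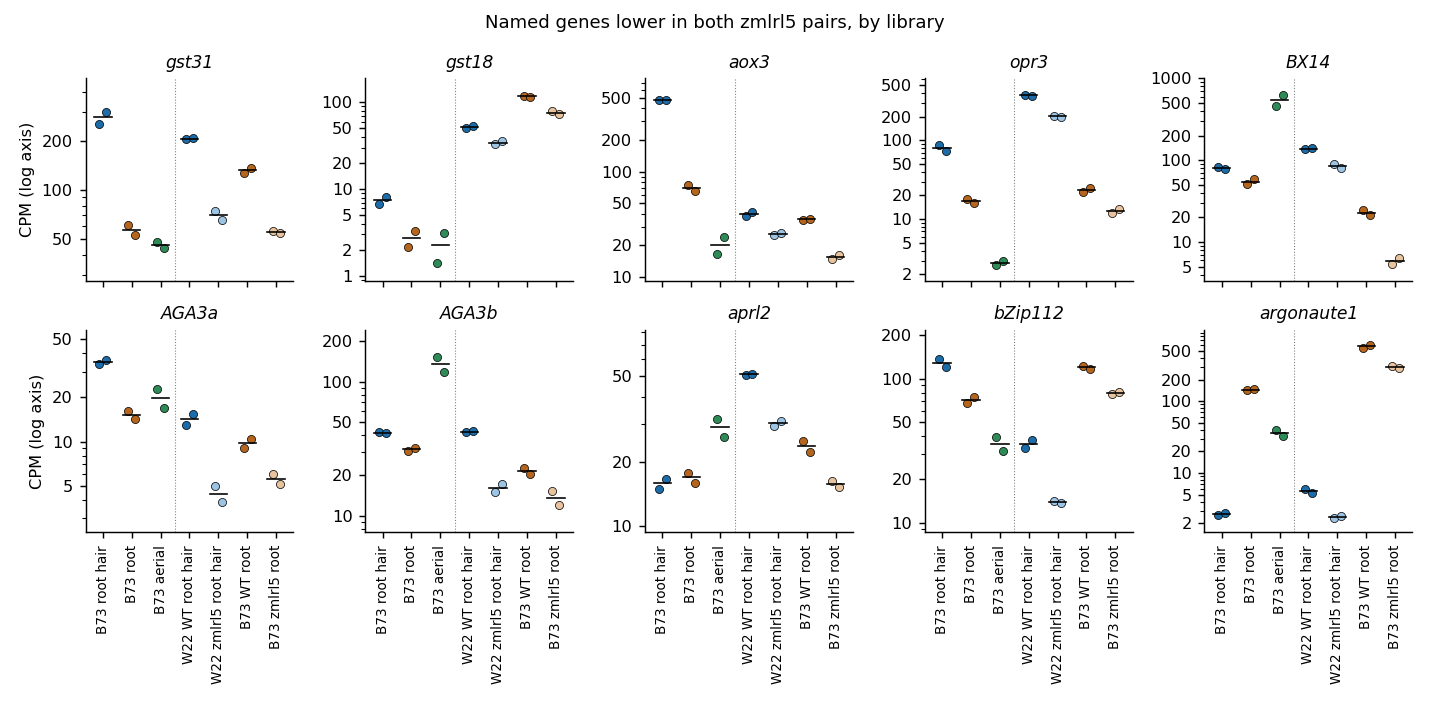
CPM on a log axis for the 10 named genes in each library, with 2 points a group and a bar at their mean; the dotted line parts the tissue set from the zmlrl5 set. In each panel both zmlrl5 points lie under their wild type points, while the order of the B73 tissues differs: BX14 and AGA3b peak in the aerial part (460 and 626 CPM for BX14), argonaute1 in root, and aox3 in hair (479 and 480 CPM).

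The 10 genes without a name whose smaller ratio was largest were GRMZM2G140824, GRMZM2G067654, AC206788.3_FG015, GRMZM2G170857, GRMZM2G157298, GRMZM2G105221, GRMZM2G124815, GRMZM2G024234, GRMZM2G475265 and GRMZM2G057841. GRMZM2G140824 led with ratios of 3.62 in hair and 4.6 in root. It held 27.2 and 29.3 CPM in wild type hair, 6.26 and 9.2 in zmlrl5 hair, 41.5 and 48.8 in wild type root, and 9.09 and 10.4 in zmlrl5 root. In the tissue set it was low throughout, with 0.658 and 0.828 CPM in B73 hair, 2.64 and 3.86 in root, and 1.88 and 0.956 in the aerial part. The B73 wild type roots of the 2 sets thus did not overlap for GRMZM2G140824. For GRMZM2G067654 the order was the opposite: 573 and 652 CPM in B73 hair, 452 and 436 in W22 wild type hair, 147 and 152 in zmlrl5 hair, with 5.43 and 4.73 in wild type roots against 0.379 and 0.594 in those of zmlrl5. Its ratios were 2.97 and 8.83. AC206788.3_FG015 had near-equal ratios of 2.93 and 3.05, with 51.8 and 60.2 against 19.6 and 18.5 CPM in hair and 24 and 19.5 against 7.77 and 6.37 in root.

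GRMZM2G170857 and GRMZM2G157298 had uneven zmlrl5 hair libraries. GRMZM2G157298 held 19.3 and 17.1 CPM in wild type hair but 11.9 and 1.32 in the 2 zmlrl5 hair libraries, and GRMZM2G170857 held 11.1 and 9.39 against 4.66 and 0.842. Their hair ratios of 2.74 and 3.63 therefore rest largely on the second zmlrl5 library. Even pairs were seen in GRMZM2G124815, with 206 and 197 against 82.7 and 82.5 CPM in hair and 31 and 32.7 against 14.1 and 11.6 in root, and in GRMZM2G057841, with 68.1 and 71.3 against 27.8 and 30.9 in hair and 60.6 and 54.4 against 22.6 and 22.4 in root. GRMZM2G105221 (ratios 2.65 and 3.56), GRMZM2G024234 (2.43 and 4.16) and GRMZM2G475265 (2.44 and 2.4) completed the 10.

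The largest single ratios belonged to other genes. GRMZM2G074611 had the highest hair ratio, 8.72, with 46.1 and 48.5 CPM in wild type hair and 5.8 and 4.87 in zmlrl5 hair. In root it held 96.2 and 92.5 against 44.1 and 48.1, a ratio of 2.05. GRMZM2G009489 had the highest root ratio, 44, with 11.2 and 10.8 CPM in wild type root and 0.142 and 0.162 in zmlrl5 root, which is near the floor. In hair GRMZM2G009489 held 440 and 430 against 234 and 238, a ratio of 1.84, and B73 hair held 675 and 735. GRMZM2G355098 came next in root with a ratio of 9.68, from 15.3 and 14.4 to 1.37 and 1.51 CPM, and had 1.73 in hair. These genes (GRMZM2G074611 outside the rule for naming) were picked out after their values were seen.

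Just inside the threshold lay bZip112, aprl2, GRMZM2G468111, gst18 and GRMZM2G137440, whose smaller ratios ran from 1.5 to 1.508. The genes just outside it were GRMZM2G032276 at 1.499, GRMZM2G019328 at 1.498, gst8 (GRMZM2G156877) at 1.495, GRMZM2G093076 at 1.494 and GRMZM2G090432 at 1.491. gst8, another glutathione S-transferase, had a hair ratio of 2.997 and missed by its root ratio. GRMZM2G019328 had a root ratio of 19.108 and missed by its hair ratio.

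In the tissue set of B73 libraries, which the choice of genes did not use, most of the 98 genes were higher in hair than in root. With TMM scaling (a scaling that assumes most genes do not differ), 75 of 98 were higher in root hair than in root and 17 were lower (edgeR quasi-likelihood test, adjusted p under 0.05). Over all 25551 genes tested, 34% were called higher and 39.2% lower, and over the genes at 5 CPM or more in both zmlrl5-set wild types, 56.7% and 18.2%. The median log2 fold change of the 98 was 2.0, beside -0.14 over all genes tested and 0.79 over the expressed ones. The scaling mattered: TMM factors were 0.628 to 0.685 in hair and 1.359 to 1.496 in root, so the fold changes exceed those of plain CPM by 1.12 on the log2 scale. With library totals in place of TMM, the median of all genes moved to -1.25 and that of the 98 to 0.88, with 56 of the 98 higher and 21 lower, beside 24.2% and 42.2% of the expressed genes. Of the 75, 18 were not called and 1, GRMZM2G063216, was called lower, at -0.59 (edgeR, adjusted p = 0.0202). Its call with TMM, at 0.52, was also lost under each of the other 8 alternatives.

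**Figure D3:**
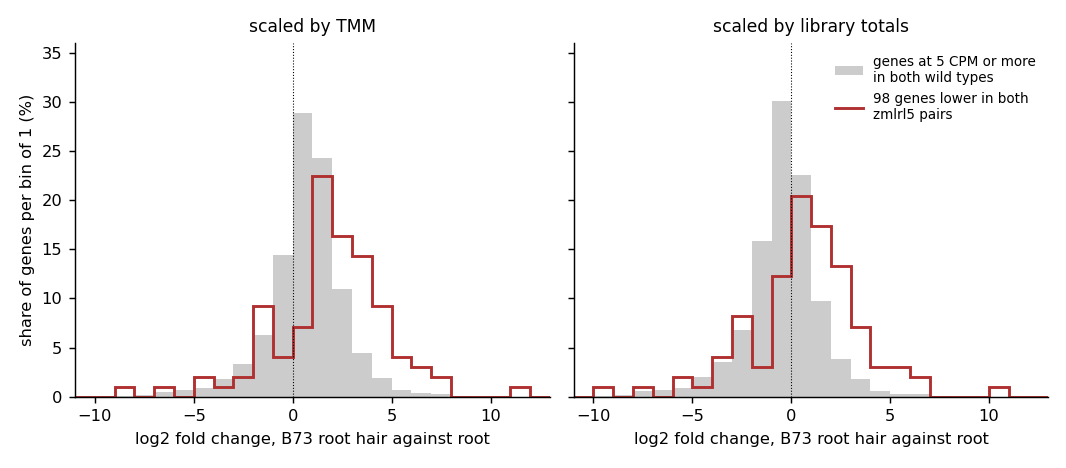
Share of genes (%) per bin of 1 in the log2 fold change of B73 root hair against root, with TMM scaling on the left and library totals on the right; grey fill is the expressed genes that were tested and the red line the 98 genes. The bulk of the red line lies to the right of the grey in both panels, with a smaller group at negative values and medians of 2.0 and 0.88 for the 98 genes.

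Among genes far above root in B73 hair, GRMZM2G009489 held 675 and 735 CPM against 0.677 and 0.65, a log2 fold change of 11.18 ± 0.37 (SE; edgeR, adjusted p = 4.98e-23). GRMZM2G151425 held 788 and 781 against 8.46 and 7.42 CPM, and GRMZM2G163578 held 226 and 251 against 3.86 and 3.4. GRMZM2G024234 and GRMZM2G067654 followed with log2 fold changes of 6.71 and 6.54. For each of these 5 genes both hair libraries lay far above both root libraries. Of the named genes, aox3 had a log2 fold change of 3.90 ± 0.25, gst31 3.41 ± 0.24, opr3 3.36 ± 0.25 and gst18 2.55 ± 0.35 (edgeR, adjusted p at most 4.67e-08). AGA3a was higher at 2.32, bZip112 at 1.97 and BX14 at 1.67 with TMM, and at 1.2, 0.85 and 0.55 with library totals, all called with both. AGA3b was called at 1.53 with TMM but stood at 0.41 (edgeR, adjusted p = 0.0889) with library totals. aprl2 was called at 1.03 with TMM and had the opposite sign, -0.09, with library totals (edgeR, adjusted p = 0.759), so no direction is given for it.

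The 17 genes lower in hair were led by GRMZM2G092945, GRMZM2G177491, argonaute1, GRMZM2G120962 and GRMZM2G104655. GRMZM2G092945 had 0 counts in both B73 hair libraries against 4.2 and 2.52 CPM in root, which makes root at least 55.9-fold higher against a floor of 3 counts over the group. Yet in the W22 hair GRMZM2G092945 held 94.9 and 98 CPM in wild type and 46.1 and 34.9 in zmlrl5. GRMZM2G177491 held 110 and 95.2 CPM in root against 0.542 and 0.792 in hair. argonaute1 had a log2 fold change of -4.62 ± 0.27 (edgeR, adjusted p = 2.15e-17), and all 17 were also called lower with library totals. The call of GRMZM2G140824, one of the 17, was lost with DESeq2 and without either of 2 libraries (B73 root replicate 2, B73 root hair replicate 1). GRMZM2G120962 held 760 and 812 CPM in root and 14.7 and 15 in hair. In the other B73 wild type root, that of the zmlrl5 set, GRMZM2G120962 stood at only 24.9 and 24.2. GRMZM2G104655 had 3 counts in hair in all, a root to hair ratio of 27.5 with a counting interval of 9 to 137 (exact, 95%).

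Against the aerial seedling, 65 of the 98 genes were higher in B73 hair and 22 lower (edgeR, adjusted p under 0.05), beside 34.2% and 45% of all genes tested and 57.4% and 21.2% of the expressed ones. The median log2 fold change was 2.07, beside -0.40 over all genes and 0.85 over the expressed ones. With library totals, 59 were higher and 28 lower, beside 38.8% and 33% of the expressed genes, and the median of all genes was -1.10. GRMZM2G355098 had 407 and 485 CPM in hair and 3 counts in the 2 aerial libraries, a ratio of 5739 with a counting interval of 1964 to 27832. GRMZM2G115716 was the same kind of gene, at 33.1 and 37.1 CPM in hair and 15.7 and 16.9 in root against 3 counts in the aerial part. opr3 had a log2 fold change of 5.53 ± 0.29 and aox3 5.26 ± 0.27 (edgeR, adjusted p at most 1.51e-19).

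The lower genes included 4 without a name, GRMZM2G106177, GRMZM2G169240, GRMZM2G479906 and GRMZM2G104655. GRMZM2G169240 held 249 and 225 CPM in the aerial part, 86.2 and 79.4 in root, and 11.2 and 10.7 in hair. GRMZM2G106177 held 59.5 and 52.2, 6.23 and 6.46, and 1.12 and 0.468 CPM in the same order. Both were lower in the zmlrl5 hair, as the rule requires, and GRMZM2G169240 went from 74.9 and 79.5 to 34.6 and 40.4 CPM there.

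Between B73 root and the aerial seedling the 98 genes were evenly split, with 36 higher in root, 35 lower and 27 not called (edgeR, adjusted p under 0.05). The shares over all genes tested were 28.5% and 32%, and over the expressed genes 31.6% and 24.9%. The median log2 fold change was -0.16, beside -0.02 over all genes. With library totals 43 were higher and 32 lower, beside 48.3% and 16.5% of the expressed genes. The share called higher exceeded that of the expressed genes with TMM only, while the share called lower exceeded it with both scalings. GRMZM2G120962 (760 and 812 against 0.434 and 0.169 CPM) and GRMZM2G355098 (29.2 and 31.9 CPM against 3 counts) led the higher genes. GRMZM2G101116, GRMZM2G115773, GRMZM2G123394, GRMZM2G113340 and GRMZM2G105221 led the lower ones, with log2 fold changes from -5.29 to -3.74. BX14 at -3.72 ± 0.24 and AGA3b at -2.53 ± 0.24 were lower in root as well (edgeR, adjusted p at most 1.06e-11).

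Put together, the calls with TMM scaling gave 61 genes higher in hair than in both other B73 tissues (62.2%, beside 46.7% of the expressed genes). With library totals only 56 were called higher in hair than in root, so fewer than 61 could have that pattern. The patterns were not counted with library totals. Another 18 were highest in the aerial part (18.4%, beside 11.1%), 8 in root (8.16%, beside 7.31%), and 11 fell in none of these patterns. The median root ratios of the 4 sets were 2.05, 1.89, 1.82 and 2.17, and the median hair ratios 1.89, 1.84, 2.24 and 1.75, all of them ratios that the rule had already set at 1.5 or more. Among all 7 groups, the highest mean was in W22 wild type hair for 39 genes, in B73 hair for 27, in B73 wild type root of the zmlrl5 set for 16, in the aerial part for 13, and in B73 root of the tissue set for 3. The rule itself keeps the zmlrl5 groups from being highest, and it favours the wild types of that set by asking for their higher values. The same count was not made over the expressed genes, so these counts are a description only.

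**Figure D4:**
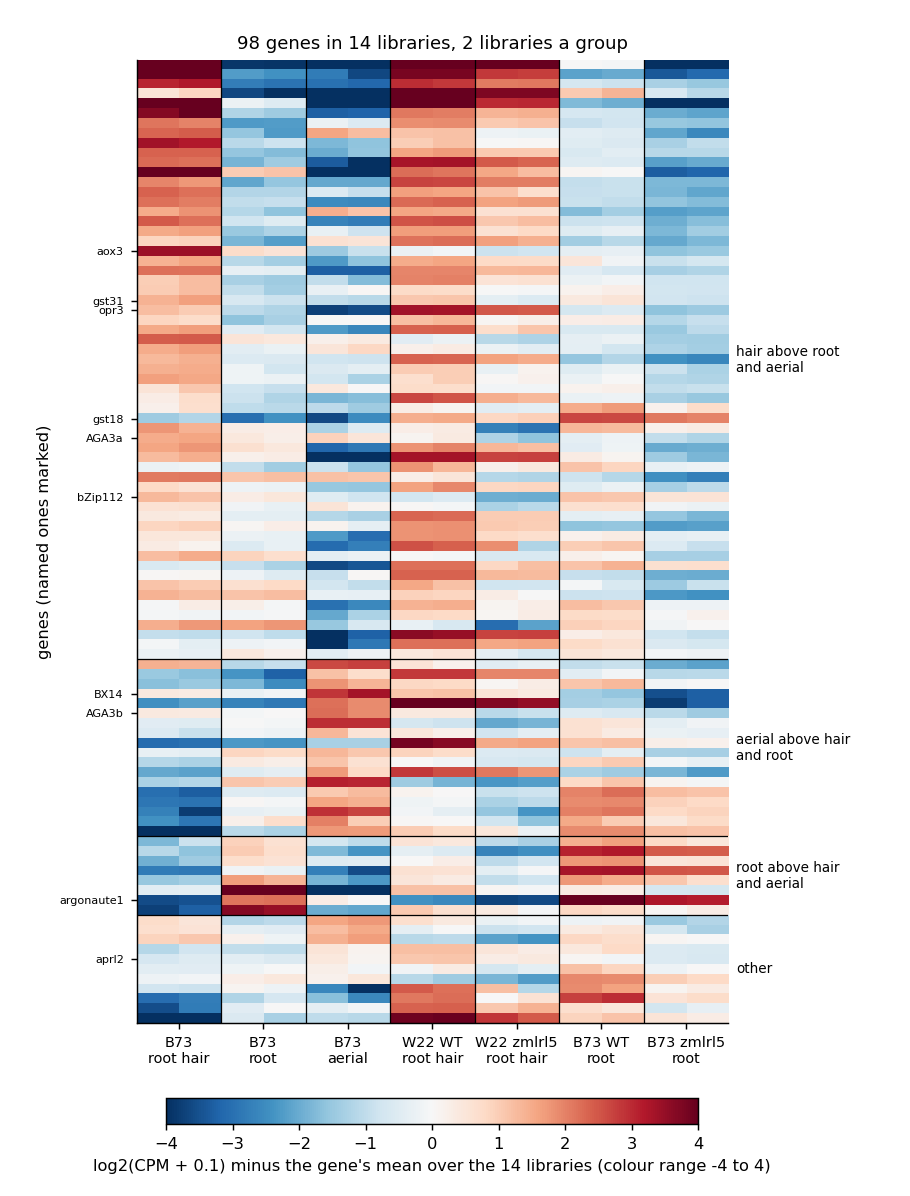
Rows are the 98 genes and columns the 14 libraries. Colour gives log2(CPM + 0.1) minus the gene's mean over the 14 libraries, cut at -4 and 4. Rows are grouped by the pattern of calls with TMM scaling in the B73 tissue libraries (61, 18, 8 and 11 genes). The hair columns of both sets are red for most of the first block, the aerial columns for most of the second, and the zmlrl5 columns are paler or bluer than their wild type columns.

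A wild type root that the rule did not use was compared next, as a description, since it comes from another library set. The rule had already chosen genes whose zmlrl5 values lay below the wild type values of the zmlrl5 set. It therefore favours tissue-set values above zmlrl5, and zmlrl5-set wild types above the tissue set, in root and in hair. Both B73 root libraries of the tissue set lay above both zmlrl5 roots in 51 of the 98 genes (52%, beside 34.3% of the expressed genes) and below both in 29 (29.6%, beside 46.2%). The zmlrl5-set wild type root lay above the tissue-set root in 64 of the genes (65.3%, beside 47.7%) and below it in 22 (22.4%, beside 32.4%). gst31 was lower in the tissue-set root, with 61.2 and 52.5 CPM in the tissue-set root, below wild type at 127 and 136 and overlapping zmlrl5 at 55.9 and 54.2. For BX14 the tissue-set root, at 51.6 and 58.2 CPM, lay above both groups of the zmlrl5 set.

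In hair, B73 libraries lay above both W22 zmlrl5 libraries in 51 genes (52%, beside 36.3%) and below both in 40 (40.8%, beside 47%). W22 wild type hair lay above B73 hair in 60 (61.2%, beside 47%) and below it in 33 (33.7%, beside 36.1%). In 30 genes the tissue-set libraries lay above the zmlrl5 libraries in both hair and root (30.6%, beside 18.6% of the expressed genes). The ratio of W22 to B73 wild type hair, with 0.1 CPM added to each mean, ranged from 0.0829 to 966 among the genes, with a median of 1.77. Over the expressed genes it ranged from 0.0266 to 1820, with a median of 1.09. The 966 belongs to GRMZM2G092945, which had 0 counts in B73 hair, so the added 0.1 CPM sets its size. In some genes the 2 wild type hairs differed more than the W22 wild type and zmlrl5 hairs did. GRMZM2G024234 shows this, at 7.66 and 9.79 CPM in B73 hair against 173 and 176 in W22 wild type and 71.5 and 71.9 in W22 zmlrl5 hair.

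Genes far higher in hair than in root were also read in the root pair. Among genes that were no members, 236 had a log2 fold change of at least 5 in B73 hair against root and at least 1 CPM in that root (chosen after the 98 genes were known). Their median root ratio was 1.51, with 118 at 1.5 or more and 8 at the inverse or less, while their median hair ratio was 1.13. Over the 10441 genes at 5 CPM or more in both wild types, the median root ratio was 1.02 and the median hair ratio 0.999. Of those genes, 381 had a root ratio of 1.5 or more and 102 the inverse or less. The filters differed, since the 236 genes needed at least 1 CPM in the tissue-set root and had no minimum in the zmlrl5 set. The summed level of the 236 genes was 4857 and 5116 CPM in wild type root, 3212 and 3092 in zmlrl5 root, and 4188 and 3817 in the tissue-set root. Of the 4 roothairless genes, which are needed for hair growth in maize, only rth6 was among the 236. In the root pair rth3 held 28.2 and 33.7 CPM in wild type and 32.6 and 26.9 in zmlrl5, and rth5 38.4 and 37.8 against 47.7 and 42.8. Neither was called (edgeR, adjusted p = 0.975 and 0.0596), nor was rth1. rth6 (GRMZM2G436299) alone was lower, with 191 and 234 against 142 and 122 CPM in hair and 2.59 and 3.65 against 0 counts in root, at least 42.4-fold lower. Its wild type root level was under 5 CPM, so it was no member. The part of hair RNA in the root ratios was not tested.

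Of the 98 genes, 8 met the same definition, with a median root ratio of 1.95, and the other 90 had a median of 1.99. GRMZM2G009489 and GRMZM2G024234 passed the fold change but held under 1 CPM in that root. In 32 of the genes B73 hair held no more CPM than B73 root. Their root ratios ran from 1.5 to 4.6 with a median of 1.89, and the other 66 had a median of 2.1. The rule set the lower end of both, so these ratios are a description only. argonaute1, at 141 and 149 CPM in B73 root against 2.59 and 2.81 in B73 hair, was among them with a root ratio of 1.97.

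**Figure D5:**
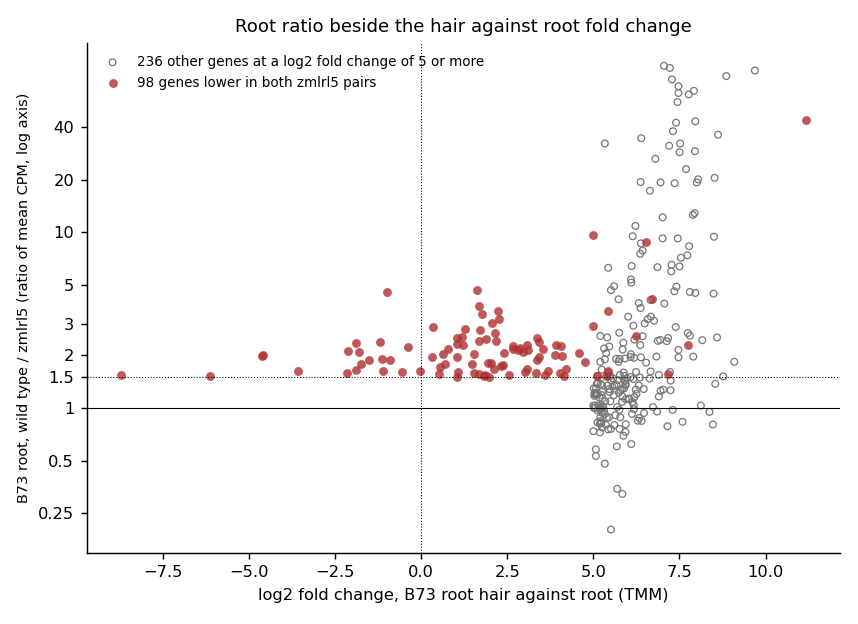
The wild type to zmlrl5 ratio of mean CPM in B73 root (y, log axis) against the log2 fold change of B73 root hair over root with TMM scaling (x), for the 98 genes (filled) and 236 other genes at a log2 fold change of 5 or more (open). The open points have a median ratio of 1.51 and reach higher than the filled ones, while filled points with negative fold changes, such as argonaute1 at 1.97, also lie above 1.5, as the rule requires.

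Markers of other tissues were read in the same libraries. The 2 root cap genes RCP1 and RCP2 together held 3.16 and 3.31 CPM in wild type root and 0.189 and 0.324 in zmlrl5 root, beside 170 and 173 in the tissue-set root, 107 and 108 in W22 wild type hair, and 79.7 and 85.4 in zmlrl5 hair. Both were called lower in zmlrl5 root and RCP1 in zmlrl5 hair (edgeR, adjusted p = 0.00606, 4.12e-08 and 0.00169), and the root call of RCP1 was lost without B73 wild type root replicate 1 or zmlrl5 root replicate 2 (edgeR, adjusted p at most 0.0717). GRMZM2G120962 and GRMZM2G177491, both near or above 100 CPM in the tissue-set root and under 25 in the other wild type root, had that same gap between the sets. Photosynthesis genes, 7 of 13 called higher in zmlrl5 hair and 6 of 13 in zmlrl5 root and 0 lower in either, summed to 10.6 and 12.8 CPM in wild type root and 48 and 49.8 in zmlrl5 root, and to 39.6 and 25.2 against 36.8 and 105 in hair, where the sums overlapped, far under the 3692 and 3668 of the aerial part. Genes of dividing cells were mostly not called, with 2 of 20 lower in zmlrl5 hair and 1 of 20 in zmlrl5 root, and summed to 110 to 146 CPM in the hair groups and 1133 to 2808 in the roots, with 119 and 122 against 110 and 115 in the hair pair and 1293 and 1240 against 1133 and 1144 in the root pair. The part of any of these in the members' ratios was not tested.

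The other genes of the named members' families were counted next. Over all 25303 genes tested, 12.4% were called lower and 10.1% higher in zmlrl5 hair, and 4.09% and 4.27% in zmlrl5 root (edgeR, adjusted p under 0.05). Over the 10441 expressed genes the shares were 18.7% lower and 14.3% higher in hair, and 6.18% and 4.76% in root. Of 29 other glutathione S-transferases, 6 were lower and 3 higher in hair, and 6 lower and 4 higher in root. gst8, gst24 and gst20 were lower in both, with log2 fold changes of -1.60, -0.51 and -0.41 in hair and -0.54, -1.34 and -0.65 in root. In root gst2 fell by 1.12 and gst30 fell by 1.03 without a call in hair, while GST26 and gst19 rose there by 1.09 and 0.78. These family lists were drawn up after the members were known and hold named genes only.

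The second alternative oxidase, Aox (GRMZM2G125669), was lower in zmlrl5 root, by a log2 fold change of -0.91 ± 0.13, and higher in zmlrl5 hair, by 0.49 ± 0.11 (edgeR, adjusted p = 4.19e-06 and 0.00176). Its values were 28.9 and 37.8 against 18.6 and 16 CPM in root and 41.4 and 41.3 against 57.2 and 60.2 in hair. aox3 was lower in both. Among 23 other lipoxygenase, allene oxide and OPR genes, 4 were lower and 0 higher in root, opr1 at -1.88, opr2 at -1.14, opr5 at -0.59 and lox4 at -0.31. The root calls of opr2 and lox4 were lost without B73 wild type root replicate 2, and that of lox4 also without zmlrl5 root replicate 2 (edgeR, adjusted p at most 0.0613 for opr2 and 0.251 for lox4). In hair 3 were lower, led by lox12 at -1.97 and lox6 at -1.36, and 4 higher, led by aoc1 at 0.74. None but opr3 met the rule in both pairs.

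Most other genes of the pathway of BX14 were higher in zmlrl5 root. Of the 8 other benzoxazinoid genes, 6 were higher in zmlrl5 root and 0 lower. bx1, the entry enzyme of the pathway, went from 730 and 725 to 1253 and 1265 CPM, a log2 fold change of 0.83 ± 0.09 (edgeR, adjusted p = 2.1e-08), which DESeq2 did not call (adjusted p = 0.117). bx2 stood at 0.68, BX3 at 0.49, bx6 at 0.33, and BX4 and BX5 at 0.32, against -1.91 for BX14, whose value was used to choose it. The calls of bx6, BX4 and BX5 were lost without B73 wild type root replicate 1 or zmlrl5 root replicate 1, and that of bx6 also without zmlrl5 root replicate 2 and with DESeq2 (edgeR, adjusted p at most 0.477, 0.116 and 0.0673 without 1 library). bx8 and bx9 were not called in root. In hair bx6, bx8 and bx9 were lower and BX3 higher. The difference between BX14 and the others was not tested.

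Of the alkaline alpha-galactosidases, AGA2 (GRMZM2G127147) was lower in both pairs by less than the rule asks. It held 163 and 169 against 96.3 and 98.4 CPM in hair and 67.9 and 66.5 against 50.9 and 51.3 in root, log2 fold changes of -0.79 and -0.35 (edgeR, adjusted p = 4.85e-09 and 0.00549). Its root call was lost without either B73 wild type root library or zmlrl5 root replicate 2 (edgeR, adjusted p at most 0.0865). AGA1 was not called in either, at 0.11 and 0.23 (edgeR, adjusted p = 0.323 and 0.0573). Of 26 other bZIP genes 6 were higher and 3 lower in hair, and 1, bZIP9, was lower in root, at -0.72. The other Argonaute gene tested was not called.

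The 20 lists drawn up for transport, nitrogen, carbon, sulfur and iron use, wall, peroxidase, bHLH, tissue markers and hair growth held 261 genes and 1 member, aprl2. The 5 lists on nitrogen held 32 genes and 0 members, with 10 of 28 tested lower and 6 higher in zmlrl5 hair, and 4 lower and 3 higher in zmlrl5 root. Members were 0.939% of the expressed genes, and not all listed genes were expressed at the rule's level. These member counts therefore do not show that the listed pathways were spared. In hair NIR, the nitrite reductase gene, was lower by a log2 fold change of -3.08 and sum1, of the siroheme path, by -4.17, with 0.37 and -0.02 in root, neither called there (edgeR, adjusted p = 0.534 and 0.994). fnr1, a ferredoxin reductase gene, was lower in both, at -1.0 and -0.29 (edgeR, adjusted p = 8.71e-10 and 0.0447). Its root call was lost with DESeq2 (adjusted p = 0.0611) and without any 1 of the 4 root libraries (edgeR, adjusted p = 0.108 to 0.437). Among 4 phosphate transport genes tested, pht2 and pht9 were lower in both, at -0.49 and -0.56 in hair and -1.72 and -1.60 in root, but their hair ratios were under 1.5. Of 10 other sulfate genes 2 were lower and 3 higher in hair, and 1, sat2, lower in root, a call lost without zmlrl5 root replicate 2 (edgeR, adjusted p = 0.155).

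A few members lie side by side on the genome. Of the 98, 62 could be placed in the RefSeq order of genes (assembly Zm-B73-REFERENCE-NAM-5.0). Among these, 4 pairs stood within 5 genes of each other. The same count was not made for other genes, so whether 4 pairs is more than usual is not known. AGA3b and AGA3a were 4 genes apart. aox3 adjoined GRMZM2G074761, GRMZM2G169261 adjoined GRMZM2G106177, and GRMZM2G475265 adjoined GRMZM2G175927. Within the B73 tissue set, GRMZM2G169261 and GRMZM2G106177 were both highest in the aerial part and lower in hair than in root. GRMZM2G169261 was higher still in the wild type root of the zmlrl5 set, at 150 and 180 CPM against 79.6 and 91.9 in the aerial part. aox3 and GRMZM2G074761 differed, since GRMZM2G074761 held 127 and 139 CPM in wild type root, 11.6 and 10.2 in W22 wild type hair, and 6.81 and 4.79 in B73 hair. Its hair ratio was 4.32 and its root ratio 1.63. No source states whether counting used strand, so reads of neighbours that overlap could not be told apart.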

How the data were processed

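TRIzol extraction and NEBNext mRNA libraries are stated per the labels' protocols. The tools TopHat2, HTSeq and DESeq are listed per the submitters' processing notes, with no version, genome build or strand setting. The deposited files hold the authors' raw counts per gene for 39305 IDs in 14 libraries. HTSeq summary entries, 5.57% to 8.84% of reads and present in the tissue set only, were left out. CPM used library totals. The members and all lists were chosen with earlier results of these data known. Genes were named by rule: members with a RefSeq symbol, the 10 others with the largest smaller ratio, 5 each side of the threshold, and 5 per direction with the largest tissue fold change. Each set was filtered (filterByExpr, minimum count 10, minimum total 15), TMM-scaled and fitted with edgeR 4.0.16 in R 4.3.3 (glmQLFit, glmQLFTest, two-sided, Benjamini-Hochberg over all genes tested, called under 0.05), as tested on simulated data. The SE is the absolute log2 fold change divided by the square root of F. Alternatives were upper-quartile scaling, library totals (added after seeing the data), DESeq2 1.42.0, no filter, a replicate block, and leaving out each library. Names came from RefSeq, which matched 18476 IDs once and 521 more than once. Floors and intervals cover counting error only.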

Additional observations from a re-analysis of the deposited data

How the results depend on the processing

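The choice of 98 genes depended on its settings: a CPM minimum of 1 gave 185 genes, a looser ratio threshold gave 336 and a ratio of 2 gave 20. With TMM-scaled CPM over all libraries 91 genes met the rule, 78 of them shared, and leaving out 1 library gave 94 to 103. In the B73 tissue comparisons, leaving out 1 library gave 70 to 74 of the 98 higher and 15 to 17 lower in hair against root, 65 to 66 and 19 to 22 in hair against the aerial part, and 31 to 37 in either direction in root against the aerial part. With library totals aprl2 reversed to -0.09 and GRMZM2G063216 to -0.59 for hair against root. GRMZM2G140824 lost its call for hair against root with DESeq2 (adjusted p = 0.121) and without either of 2 libraries. Over all genes, DESeq2 called 661 higher in zmlrl5 root in place of 1081, and leaving out 1 library gave 440 to 837 higher and 571 to 757 lower in place of 1034 (lowest without B73 wild type root replicate 1 and replicate 2 in turn); in zmlrl5 hair it gave 1788 to 2101 higher and 2868 to 3429 lower. The cause of these shifts was not tested. Whether replicate numbers pair the samples is not given, and the main fits did not pair them. Deviations of replicates correlated between groups at -0.42 (B73 root hair and B73 root) to 0.10. A replicate block gave 74 and 17, 65 and 22, and 35 and 35 in the tissue comparisons, and 2290 and 2862 in zmlrl5 hair and 888 and 904 in zmlrl5 root over all genes. Over 39 named members in the tissue comparisons and 63 other listed genes in the zmlrl5 ones, 2055 single-gene results kept their direction and call, 95 lost the call, 35 gained one and 2 reversed; other members were not counted in this. Low counts limit the ratios of genes near the floor.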
